A study of Mus musculus with 4 samples.

Results

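The genes described here are the DNA repair families of the mouse: 67 of the 22565 genes in the table, chosen by gene symbol alone (Brca, Fanc, Xrcc, Rad50 to Rad54, Ercc, Msh, Mlh, Parp, Neil and their partners) and sorted into 7 repair pathways by known role. RNA was measured in alveolar type II (AT2) cells, the surfactant-secreting cells of the lung alveolus, sorted by flow cytometry from mice of 6 months and left untreated. There were 2 wild-type (WT) libraries and 2 labelled knockout (KO). The growth protocol gives the knockout as Fbxo45-cKO and the genotype field of KO replicate 1 names Fbxo45, whereas that of KO replicate 2 names Fbxo46. The labels do not give the deleted exons, the Cre driver, the strain or whether a group's libraries are from different animals, and the p-values therefore rest on library-to-library spread that may be technical.

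Cells mend DNA by several routes. Breaks across both strands are either joined end to end, after the Ku ring has gripped the ends, or copied from the sister chromatid by homologous recombination, which needs a replicated template and is therefore mostly a business of dividing cells. Cross-linked strands are handled by the Fanconi anaemia proteins, bulky lesions by nucleotide excision, copying errors by mismatch repair, and oxidised or deaminated bases by base excision. Adult AT2 cells rarely divide. The series title calls FBXO45 a guardian of the genome, and the comparison asks whether transcripts of these families differ between KO-labelled and WT cells.

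No repair gene passed the test between the groups, and the clearest pattern was one of level. Among the 67 genes, those of end joining, nucleotide excision and somatic mismatch repair were nearly all present at several FPKM in all 4 libraries. FPKM are fragments per kilobase of transcript, scaled to the library total, as deposited by the authors. Brca1, Brca2 and Palb2 of homologous recombination lay under 1 FPKM in all 4. Of the 67 genes, 53 reached 1 FPKM in at least 2 libraries and were tested with the other genes that did. Of those 53, 34 were higher and 19 lower in the KO-labelled libraries, which is 64.2% higher against 54.1% of all 11055 genes tested, and 0 had a limma adjusted p under 0.05, as did 0.0% of all genes tested. An unadjusted p under 0.05 was found for 3 of the 53, Neil1, Mre11a and Xrcc6, against 4.84% of all genes tested. With edgeR on the fragment counts, 0 of 60 repair genes passed and 2 had an unadjusted p under 0.05, Neil1 and Mre11a, against 3.18% of all genes. DESeq2 called none of the 67 and gave none an unadjusted p under 0.05. These tests could miss real differences. In counts simulated for groups of this size, limma called 9.09% of 2-fold changes and edgeR 10.4%, and each called 70.1% of 4-fold changes. The simulation left out genes of few fragments, so these rates do not cover genes such as Neil1, Ung, Fancf and Rad51c. It also gave both groups 1 common dispersion (0.0854), whereas the real KO-labelled libraries differed from each other more than the WT libraries did. The median log2 difference of the 53 was 0.11 (0.13 with edgeR on 60 genes), against 0.035 over all genes tested.

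The gene named by the knockout label did not separate the groups. Fbxo45 was at 4.6 and 5.91 FPKM in the WT pair and 4.41 and 7.58 FPKM in the KO-labelled pair, and Fbxo46 was at 4.13 and 3.79 FPKM against 3.82 and 4.8 FPKM. For Fbxo45 the KO-labelled libraries lay on both sides of WT (log2 difference 0.13; limma adjusted p = 0.983). A value per gene cannot show the loss of an exon, and the exons deleted are not in the labels, so this check is limited and directions below are those of libraries labelled KO. Depth ran from 4167129 to 9507486 fragments, shallowest in WT replicate 1, and 3 fragments correspond to 0.72 CPM (fragments relative to the library's total, with no length scaling) there and to 0.316 CPM in the deepest library. AT2 markers summed to 160434 and 153860 FPKM in the WT pair against 107750 and 148832 FPKM in the KO-labelled pair. On FPKM 5 of these 12 markers lay wholly below WT and 0 above, against 15.1% and 20.0% of all genes tested. Club cell markers summed to between 812 and 1325 FPKM, AT1 markers to between 739 and 1057, fibroblast and smooth muscle markers to between 15.6 and 40.1, B cell markers to between 13.9 and 22.9 and macrophage markers to between 7.13 and 13.6. Red cell markers summed to 1.32 FPKM or less, all 6 T and NK cell markers were at 0, and all 6 endothelial markers were under 1 FPKM throughout. KO replicate 1 held 1093 FPKM of fast skeletal muscle markers, against at most 9.57 FPKM in the other 3 libraries. Markers of proliferation summed to 64.6 and 66.9 FPKM in the WT pair and to 65.7 and 72.5 FPKM in the KO-labelled pair. Most of each sum was Pcna, a clamp of replication and repair, at 40.9 and 40.8 FPKM in WT against 41 and 51.8 FPKM. Mki67 was at 0.699 and 1.19 FPKM in WT against 0.589 and 0.797 FPKM, and Top2a at 1.29 and 1.2 against 0.72 and 1.42 FPKM. The part of these markers in the results below was not tested. In bulk libraries, fewer cells of a type and less RNA per cell cannot be told apart.

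**Figure D1:**
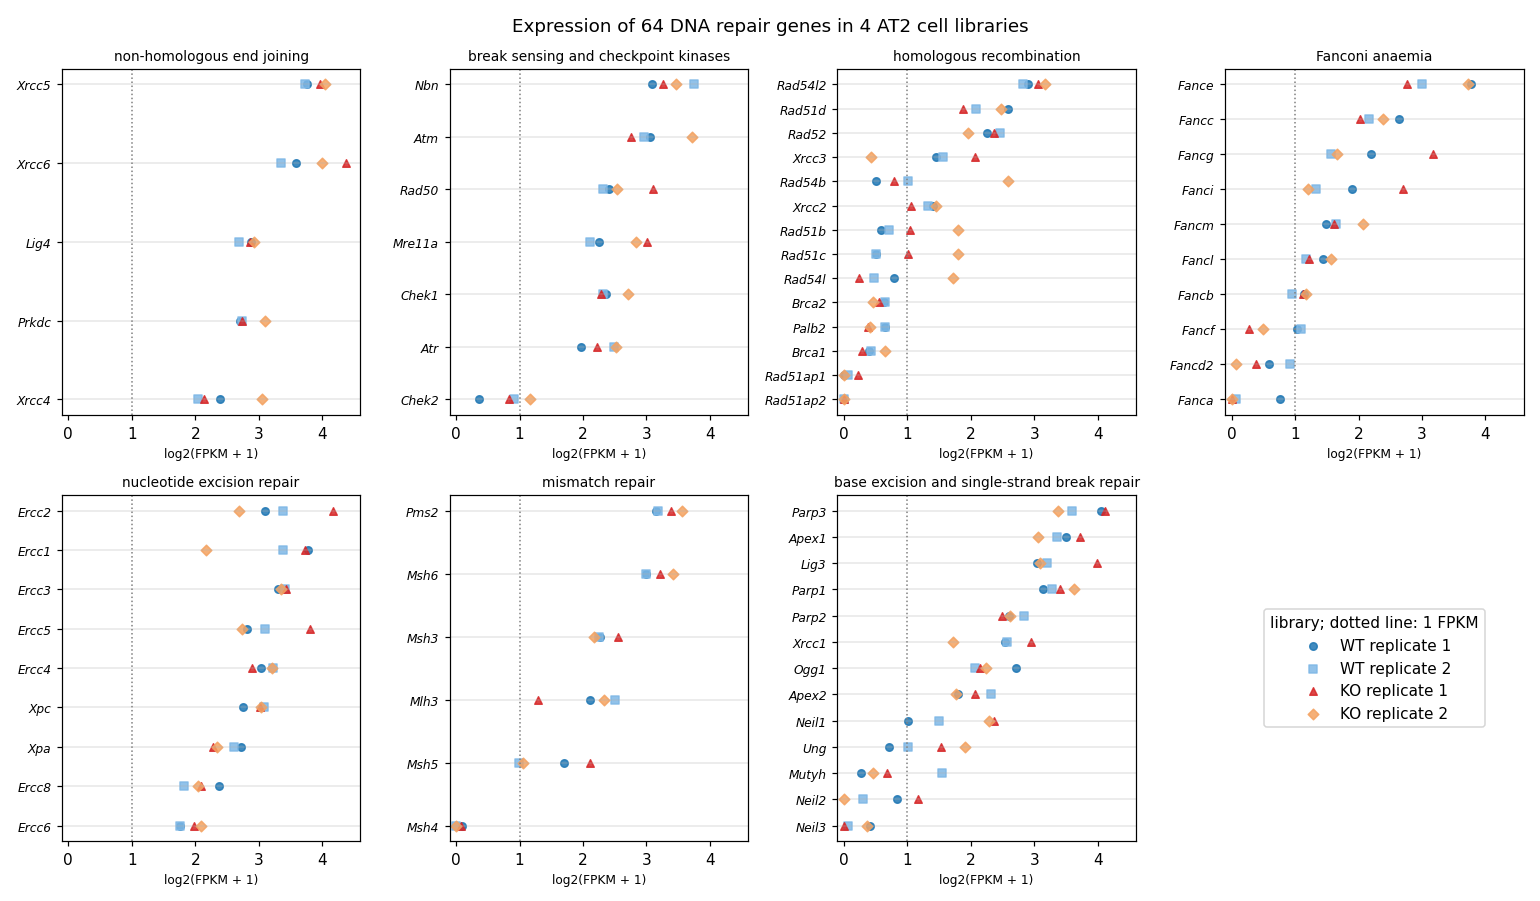
Levels of 64 repair genes on the log2(FPKM + 1) axis, 1 panel per pathway, with genes ordered by mean FPKM and 1 marker per library (blue WT, red and orange KO-labelled). End joining genes lie to the right of the dotted line at 1 FPKM in all 4 libraries, and Brca1, Brca2 and Palb2 lie to its left.

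Promoters are shown for 4 genes to which the values below return: Mre11a, Xrcc6 and Neil1, the 3 with an unadjusted limma p under 0.05, and Ung, whose p was the next smallest. Each sequence is the 250 bases before the gene's start, 5′ to 3′ on the gene's strand, from RefSeq (GRCm38.p6). RefSeq and GENCODE place the starts of Xrcc6 and Ung at different bases, so those windows overlap the gene spans given below. Capitals mark CCAAT boxes (CCAAT or its reverse complement ATTGG) and E2F sites (TTTCCCGC, TTTCGCGC, TTTGCCGC, TTTGGCGC or their reverse complements). CCAAT boxes bind NF-Y, and E2F sites bind factors that drive genes of S phase.
Mre11a (chr9:14784404-14784653, plus strand): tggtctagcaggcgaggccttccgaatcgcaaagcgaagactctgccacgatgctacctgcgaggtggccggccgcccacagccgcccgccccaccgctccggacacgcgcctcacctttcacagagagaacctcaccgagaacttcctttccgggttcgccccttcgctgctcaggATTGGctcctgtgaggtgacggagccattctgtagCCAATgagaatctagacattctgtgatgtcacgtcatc
Xrcc6 (chr15:82016119-82016368, plus strand): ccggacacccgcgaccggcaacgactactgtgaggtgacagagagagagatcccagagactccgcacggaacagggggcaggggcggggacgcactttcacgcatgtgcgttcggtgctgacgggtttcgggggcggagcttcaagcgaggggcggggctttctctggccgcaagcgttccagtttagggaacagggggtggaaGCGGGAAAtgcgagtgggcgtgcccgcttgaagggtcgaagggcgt
Neil1 (chr9:57148306-57148555, minus strand): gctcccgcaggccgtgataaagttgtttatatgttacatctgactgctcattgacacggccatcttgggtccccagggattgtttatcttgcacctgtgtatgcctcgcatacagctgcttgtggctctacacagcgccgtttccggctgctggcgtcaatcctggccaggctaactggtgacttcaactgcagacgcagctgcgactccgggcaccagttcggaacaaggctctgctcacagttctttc
Ung (chr5:114130185-114130434, plus strand): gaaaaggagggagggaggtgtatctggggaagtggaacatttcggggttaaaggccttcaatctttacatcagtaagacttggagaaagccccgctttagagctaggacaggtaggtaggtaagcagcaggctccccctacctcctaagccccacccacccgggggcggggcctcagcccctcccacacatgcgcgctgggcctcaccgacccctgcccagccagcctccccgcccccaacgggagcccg
The Mre11a promoter held 2 CCAAT boxes and the Xrcc6 promoter 1 E2F site, and in these windows the Neil1 and Ung promoters held neither. Promoter sequences were matched by symbol for 52 of the 67 genes, and 29 of these (55.8%) held a CCAAT box, against 37.5% of all 27025 genes with a promoter of this length. An E2F site was in 6 of the 52 (11.5%), against 2.16% of all. Among the tested members 4 of 41 held an E2F site (9.76%), and among those below the filter 2 of 11 (18.2%). The comparison genes were matched for neither expression nor base content. The 4 windows shown held 54.8% to 65.2% G or C, against a median of 52% over all genes with a promoter. A match is a run of letters, not a bound site.

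The 5 core non-homologous end joining genes that the symbol rule takes in were all expressed and had higher means in the KO-labelled libraries (median log2 difference 0.25), and none passed the test. Further end joining genes outside the rule, looked up after their values were seen, went both ways. The log2 difference was -0.86 for Nhej1, -0.91 for Polm, -0.50 for Poll, -0.31 for Dclre1c and -0.07 for Aplf. It was 0.20 for Trp53bp1, 0.33 for Rif1 and 0.06 for Mad2l2. None of these passed the test, and Dntt was at 0 in all 4 libraries. The higher means of the 5 core genes therefore did not extend to all end joining genes. Xrcc5 (chr1:72307421-72394952, plus strand), which encodes Ku80, was at 12.6 and 12.3 FPKM in the WT pair and 14.6 and 15.5 FPKM in the KO-labelled pair. Xrcc6 (chr15:81987835-82040085, plus strand), which encodes its partner Ku70, was at 11.1 and 9.22 FPKM in the WT pair and 19.7 and 14.9 FPKM in the KO-labelled pair. On FPKM the groups did not overlap for either subunit of the Ku ring, as for 20.0% of all genes tested in this direction. For Xrcc6 the log2 difference was 0.71 (SE 0.251; limma unadjusted p = 0.0306, adjusted p = 0.948). In CPM the second KO-labelled library met WT: Xrcc6 was at 22.6 and 21.5 CPM in WT and at 37 and 22.1 CPM in KO replicates 1 and 2, and edgeR gave a log2 difference of 0.42 (unadjusted p = 0.207). Its locus is shared with 1 other gene in the table, so its share of the fragments is uncertain. The Ku genes together stood at 23.7 and 21.5 FPKM in the WT pair and 34.3 and 30.4 FPKM in the KO-labelled pair.

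Prkdc, the DNA-dependent protein kinase that Ku recruits, was at 5.49 and 5.69 FPKM in the WT pair and 5.65 and 7.55 FPKM in the KO-labelled pair. Lig4, the ligase that seals the joint, was at 6.37 and 5.46 FPKM against 6.24 and 6.58 FPKM, and its groups overlapped on FPKM. Xrcc4, which holds Lig4 in place, was at 4.24 and 3.13 FPKM in the WT pair but 3.41 and 7.28 FPKM in KO replicates 1 and 2. On FPKM the higher value of Prkdc and Xrcc4 was largely that of KO replicate 2. In CPM the groups of Prkdc lay apart, at 83 and 80.7 in the WT pair against 87.6 and 101 in the KO-labelled pair, as did those of Lig4, at 26.9 and 25.9 against 28 and 29.9. On FPKM the pathway's median relative to the WT mean was 0.068 in KO replicate 1 but 0.38 in KO replicate 2.

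Among the genes that sense breaks and relay the alarm, 5 of 6 tested were higher, with a median log2 difference of 0.19 on FPKM and 0.41 with edgeR on 7 genes, and none passed. Mre11a (chr9:14784654-14837123, plus strand), the nuclease of the MRN complex that first binds a break, was at 3.75 and 3.33 FPKM in the WT pair and 7.06 and 6.11 FPKM in the KO-labelled pair. Both units kept the groups apart, since Mre11a was at 15.8 and 17.8 CPM in WT and at 29.5 and 25.8 CPM in the KO-labelled libraries. The log2 difference was 0.74 (SE 0.264; limma unadjusted p = 0.032, adjusted p = 0.948), and edgeR gave 0.70 (unadjusted p = 0.0241, adjusted p = 0.999). Mre11a shares its locus in the table with 6 other genes and is uncertain for that reason.

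The differences of the other members of MRN were smaller. Rad50, the long coiled tether, was at 4.29 and 3.99 FPKM in the WT pair but 7.6 and 4.8 FPKM in KO replicates 1 and 2, again without overlap, with a log2 difference of 0.46 (SE 0.304; limma unadjusted p = 0.183). Nbn, which links the complex to ATM, was at 7.47 and 12.4 FPKM in the WT pair and 8.57 and 10.1 FPKM in the KO-labelled pair, both of them between the WT values. Summed over the 3 genes, MRN was at 60.2 and 68 CPM in WT and at 89.7 and 78.3 CPM in the KO-labelled libraries.

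The kinases downstream overlapped between groups on FPKM. Atm, the kinase that MRN activates, was at 7.34 and 6.75 FPKM in the WT pair but 5.77 and 12.1 FPKM in KO replicates 1 and 2, so the KO-labelled libraries lay on both sides of WT. Atr, the kinase of stalled replication forks, was at 2.91 and 4.62 FPKM against 3.65 and 4.74 FPKM. Of the checkpoint kinases, Chek1 was at 4.15 and 3.97 FPKM in the WT pair and 3.85 and 5.56 FPKM in the KO-labelled pair, and Chek2 was at 0.288 and 0.875 FPKM against 0.783 and 1.24 FPKM. Chek2 reached 1 FPKM in KO replicate 2 alone and was not tested on FPKM. In CPM the groups of Chek1 lay apart, at 5.28 and 5.49 in the WT pair against 8.52 and 7.36 in the KO-labelled pair (edgeR log2 difference 0.55, unadjusted p = 0.204).

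Of the 7 pathways as the symbol rule draws them, homologous recombination had the lowest median level. It was 1.08 FPKM over 15 genes, against 7.56 FPKM for nucleotide excision repair and 6.16 FPKM for end joining (medians of each gene's mean over the 4 libraries). This ranking holds for the genes of the rule. Recombination genes outside it, looked up after their values were seen, lay at high and low levels. In the WT pair Sfr1 was at 24.4 and 24.5 FPKM and Rbbp8 at 7.83 and 8.74 FPKM, but Bard1 at 0.325 and 0.367 FPKM. Nhej1, an end joining gene outside the rule, was at 1.37 and 1.5 FPKM in that pair. Among the 15, the BRCA genes and their partner Palb2 were low. Brca2, which loads the recombinase on DNA, was at 0.544 and 0.572 FPKM in the WT pair and 0.466 and 0.368 FPKM in the KO-labelled pair. Palb2, which bridges BRCA1 and BRCA2, was at 0.571 and 0.566 FPKM in the WT pair and 0.307 and 0.325 FPKM in the KO-labelled pair. In both genes the KO-labelled pair lay wholly below the WT pair. Brca1 did not follow them, at 0.309 and 0.341 FPKM in the WT pair and 0.221 and 0.564 FPKM in the KO-labelled pair.

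These low values rest on few fragments. Palb2 had 9 and 13 fragments in WT and 11 and 8 in the KO-labelled libraries. Brca2, with the longer transcript, had 29 and 60 fragments in WT and 59 and 32 in the KO-labelled libraries, and edgeR gave it a log2 difference of -0.42 (unadjusted p = 0.352). Of the 14 repair genes below the filter, 5 had the KO-labelled pair wholly below the WT pair (Brca2, Palb2, Fanca and Fancd2 among them) and 0 had both above. Among all genes below the filter with any value, 14.7% were below in this sense and 9.08% above.

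The recombinase paralogues Rad51b, Rad51c, Rad51d, Xrcc2 and Xrcc3, which help the filament form on DNA, were split on FPKM: 2 had KO-labelled values wholly above WT, as did 20.0% of all genes tested, and 3 overlapped. Rad51b was at 0.503 and 0.637 FPKM in the WT pair but 1.06 and 2.49 FPKM in KO replicates 1 and 2, with a log2 difference of 0.77 (SE 0.412; limma unadjusted p = 0.11). Rad51c was at 0.423 and 0.428 FPKM in the WT pair and 1.01 and 2.46 FPKM in the KO-labelled pair, with a log2 difference of 0.89 (SE 0.42; limma unadjusted p = 0.0799). Both reached the filter through the KO-labelled libraries alone, so that they were tested at all depended on being higher there. In CPM, Rad51c was at 1.2 and 1.1 in WT and at 1.89 and 2.12 in the KO-labelled libraries, on 5 and 9 against 18 and 15 fragments. Rad51d, the most abundant paralogue, was at 4.98 and 3.25 FPKM in the WT pair and 2.68 and 4.55 FPKM in the KO-labelled pair, and the groups overlapped. Xrcc2 also overlapped, at 1.65 and 1.51 FPKM against 1.09 and 1.75 FPKM. Xrcc3 was at 1.74 and 1.96 FPKM in the WT pair, 3.2 FPKM in KO replicate 1 but 0.346 FPKM in KO replicate 2.

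Among the remaining recombination genes, Rad54b and Rad54l were highest in KO replicate 2. Rad54b, a DNA motor of recombination, was at 0.426 and 1.01 FPKM in the WT pair, 0.724 FPKM in KO replicate 1 but 5.03 FPKM in KO replicate 2, and its log2 difference of 0.93 (SE 0.638) was 0.028 without KO replicate 2. In CPM, WT replicate 2 was nearly as high: Rad54b stood at 0.24 and 2.32 in the WT pair against 0.631 and 2.97 in the KO-labelled pair, on 1 and 19 against 6 and 21 fragments, and edgeR gave 0.33. Its relative Rad54l was at 0.731 and 0.394 FPKM in the WT pair, 0.185 FPKM in KO replicate 1 but 2.31 FPKM in KO replicate 2, again the highest of the 4. The locus of Rad54l holds 16 genes in the table, so its values are uncertain. Rad52 was at 3.75 and 4.48 FPKM in the WT pair and 4.16 and 2.87 FPKM in the KO-labelled pair. Rad54l2, which the symbol rule takes in but which is known as a coregulator of steroid receptors, was the most abundant gene of the group, at 6.51 and 6.1 FPKM in the WT pair and 7.32 and 7.98 FPKM in the KO-labelled pair. Rad51ap1 had at most 2 fragments in any library, and Rad51ap2 had 0 in all 4, which allows up to 0.72 CPM in the shallowest.

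**Figure D2:**
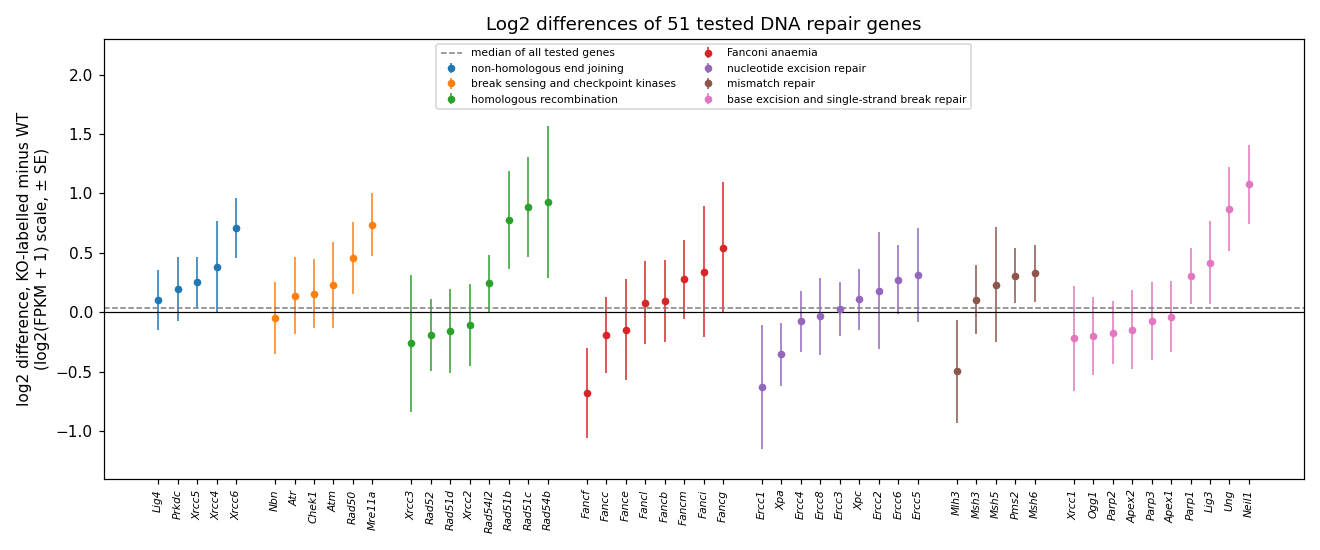
Log2 differences (KO-labelled minus WT, log2(FPKM + 1) scale) of 51 tested repair genes with their standard errors, grouped and coloured by pathway; the dashed line is the median of all tested genes, 0.035. The end joining genes are all above 0, and Neil1 is the highest point at 1.08.

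The Fanconi anaemia genes were low as well, with a median over the 10 of 1.93 FPKM, and 5 of 8 tested were higher and 3 lower (median log2 difference 0.089, or -0.026 with edgeR on 9 genes). Fance, a core complex subunit that touches FANCD2, was the most abundant, at 12.7 and 7.03 FPKM in the WT pair and 5.79 and 12.2 FPKM in the KO-labelled pair, and it varied as much within each group as between them. Fancc, its neighbour in the complex, was at 5.21 and 3.46 FPKM against 3.06 and 4.23 FPKM. Fancf, the adaptor of the core complex, was at 1.05 and 1.13 FPKM in the WT pair and 0.212 and 0.406 FPKM in the KO-labelled pair. Of the 53 tested members it alone had KO-labelled values below WT in both units, as did 11.5% of all genes tested, with a log2 difference of -0.68 (SE 0.376; limma unadjusted p = 0.121) and of -1.83 with edgeR (unadjusted p = 0.0768). Fancf had 8 and 17 fragments in WT and 4 and 5 in the KO-labelled libraries, and it passed the filter through WT alone.

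The pair that the core complex ubiquitinates differed in pattern. Fancd2 was at 0.499 and 0.89 FPKM in the WT pair but 0.303 and 0.0456 FPKM in KO replicates 1 and 2, while its partner Fanci was at 2.73 and 1.52 FPKM in the WT pair, 5.52 FPKM in KO replicate 1 but 1.32 FPKM in KO replicate 2. Fancg, like Fanci, was highest in KO replicate 1, at 3.59 and 1.96 FPKM in the WT pair, 8.06 FPKM in KO replicate 1 but 2.18 FPKM in KO replicate 2, and without KO replicate 1 its log2 difference went from 0.54 (SE 0.551) to -0.21. Fancl, the ubiquitin ligase of the complex, was at 1.73 and 1.25 FPKM against 1.33 and 1.95 FPKM. Fancm, the DNA translocase that anchors it, was at 1.8 and 2.12 FPKM against 2.06 and 3.2 FPKM, and Fancb was between 0.942 and 1.25 FPKM in all 4 libraries. Fanca had 2 fragments in each WT library and 0 in each KO-labelled one, and no fold is given for it.

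Nucleotide excision repair, at a median of 7.56 FPKM over its 9 genes, showed no common direction: 5 were higher and 4 lower, with a median log2 difference of 0.03. Ercc3, the XPB helicase of TFIIH, barely varied, at 8.92 and 9.66 FPKM in the WT pair and 9.79 and 9.22 FPKM in the KO-labelled pair. Its partner helicase Ercc2 (XPD; chr7:19382010-19395694, plus strand) was at 7.61 and 9.41 FPKM in the WT pair, 16.9 FPKM in KO replicate 1 but 5.45 FPKM in KO replicate 2. Ercc1 (chr7:19344778-19356524, plus strand), the partner of the XPF nuclease, was at 12.6 and 9.48 FPKM in the WT pair, 12.3 FPKM in KO replicate 1 but 3.49 FPKM in KO replicate 2. Ercc1 and Ercc2 lie close together on chromosome 7, and for both KO replicate 2 was the lowest of the 4 libraries. In CPM it was lowest too, at 4.67 for Ercc1 against 7.93 to 9.15 in the other 3, and at 12.7 for Ercc2 against 24.1 to 29.1. The log2 difference of Ercc1 was -0.63 (SE 0.521; limma unadjusted p = 0.272) and 0.15 without KO replicate 2.

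For Ercc2 the units gave different signs, with a log2 difference of 0.18 on FPKM and of -0.28 with edgeR, and its locus is shared with 1 other gene. Ercc4, the XPF nuclease, was at 7.25 and 8.31 FPKM in the WT pair and 6.44 and 8.27 FPKM in the KO-labelled pair. Ercc5, the XPG nuclease, was at 6.02 and 7.56 FPKM in the WT pair, 13 FPKM in KO replicate 1 but 5.65 FPKM in KO replicate 2, while in CPM it ran only from 24.3 to 35.3. The damage sensor Xpc was at 5.76 and 7.45 FPKM against 7.13 and 7.2 FPKM. Xpa, which verifies the lesion, was at 5.58 and 5.08 FPKM in the WT pair and 3.83 and 4.07 FPKM in the KO-labelled pair, without overlap on FPKM but with overlap in CPM (2.88 and 3.9 against 3.37 and 2.97). Of the factors that couple repair to transcription, Ercc6 (CSB) was at 2.4 and 2.39 FPKM in the WT pair and 2.95 and 3.27 FPKM in the KO-labelled pair, and Ercc8 (CSA) was at 4.2 and 2.53 FPKM against 3.24 and 3.13 FPKM.

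Mismatch repair was expressed through its somatic subunits, and 6 of 7 tested genes were higher, with a median log2 difference of 0.11 (0.15 with edgeR). Msh6, the MutS subunit for base mismatches, was at 6.95 and 6.93 FPKM in the WT pair and 8.25 and 9.74 FPKM in the KO-labelled pair, with a log2 difference of 0.33 (SE 0.241; limma unadjusted p = 0.224). Msh3, the MutS subunit for loops, was lower in level, at 3.82 and 3.74 FPKM against 4.85 and 3.52 FPKM. Msh6 was above Msh3 in all 4 libraries, and its groups did not overlap, while those of Msh3 did.

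Pms2, of the MutL dimer that cuts the new strand, was at 7.86 and 8.07 FPKM in the WT pair and 9.42 and 10.8 FPKM in the KO-labelled pair, again without overlap. Mlh3, a MutL protein best known from meiosis, was at 3.3 and 4.68 FPKM in the WT pair, 1.44 FPKM in KO replicate 1 but 4.05 FPKM in KO replicate 2. Of the meiotic MutS genes, Msh4 had at most 2 fragments in a library and Msh5 was at 2.26 and 0.998 FPKM against 3.32 and 1.08 FPKM.

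Base excision and single-strand break repair held the largest difference among the 53 members on FPKM, that of Neil1, but no common direction: 4 of 10 tested were higher and 6 lower, with a median log2 difference of -0.056. Neil1 (chr9:57142800-57148305, minus strand), a glycosylase for oxidised pyrimidines, was at 1.01 and 1.83 FPKM in the WT pair and 4.17 and 3.87 FPKM in the KO-labelled pair. In CPM Neil1 was at 1.2 and 2.2 in WT and at 5.57 and 4.39 in the KO-labelled libraries, on 5 and 18 against 53 and 31 fragments. Both units kept the groups apart. The log2 difference was 1.08 (SE 0.33; limma unadjusted p = 0.0176, adjusted p = 0.948) and 1.49 with edgeR (unadjusted p = 0.0484, adjusted p = 0.999), where Fancf (-1.83) and Rad51b (1.57) were further from 0. Ung (chr5:114130386-114139323, plus strand), the uracil glycosylase, was at 0.639 and 1.01 FPKM in the WT pair and 1.91 and 2.77 FPKM in the KO-labelled pair. Of the WT pair only replicate 2 reached 1 FPKM, so Ung would not have passed the filter without the KO-labelled libraries. Ung had 5 and 18 fragments in WT and 37 and 38 in the KO-labelled libraries. It also stayed apart in CPM, at 1.2 and 2.2 against 3.89 and 5.38, with a log2 difference of 0.87 (SE 0.355; limma unadjusted p = 0.0511) and of 1.38 with edgeR (unadjusted p = 0.0685).

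The groups overlapped for each of the other glycosylases. Ogg1, which removes oxidised guanine, was at 5.58 and 3.2 FPKM in the WT pair and 3.43 and 3.72 FPKM in the KO-labelled pair. Mutyh, which removes adenine opposite that lesion, was at 0.213 and 1.92 FPKM against 0.609 and 0.378 FPKM, so WT replicate 2 alone was high. Neil2 was at 0.793 and 0.23 FPKM in the WT pair, 1.24 FPKM in KO replicate 1 and at or near 0 in KO replicate 2, with 0 fragments, and Neil3 had at most 5 fragments in a library. Ogg1 and Neil1 were similar in level in the KO-labelled libraries, while in WT Ogg1 was the higher.

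Downstream of the glycosylases, Apex1, the main nuclease at the abasic site, was at 10.3 and 9.21 FPKM in the WT pair and 12.1 and 7.38 FPKM in the KO-labelled pair, and its relative Apex2 was at 2.5 and 3.99 FPKM against 3.19 and 2.41 FPKM. Parp1, the nick sensor, was at 7.83 and 8.69 FPKM in the WT pair and 9.62 and 11.3 FPKM in the KO-labelled pair, with a log2 difference of 0.31 (SE 0.238; limma unadjusted p = 0.246). Parp3 was the most abundant gene of the pathway and overlapped, at 15.5 and 11.1 FPKM against 16.2 and 9.42 FPKM. Parp2 was between 4.63 and 6.19 FPKM in all 4 libraries. The scaffold Xrcc1 was at 4.82 and 4.94 FPKM in the WT pair, 6.75 FPKM in KO replicate 1 but 2.29 FPKM in KO replicate 2, so the KO-labelled libraries again stood on both sides of a close WT pair. Its ligase Lig3 was at 7.24 and 8.19 FPKM in the WT pair, 14.9 FPKM in KO replicate 1 but 7.51 FPKM in KO replicate 2, while in CPM it ran from 36.7 to 47.3, and its locus is shared with 13 other genes.

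**Figure D3:**
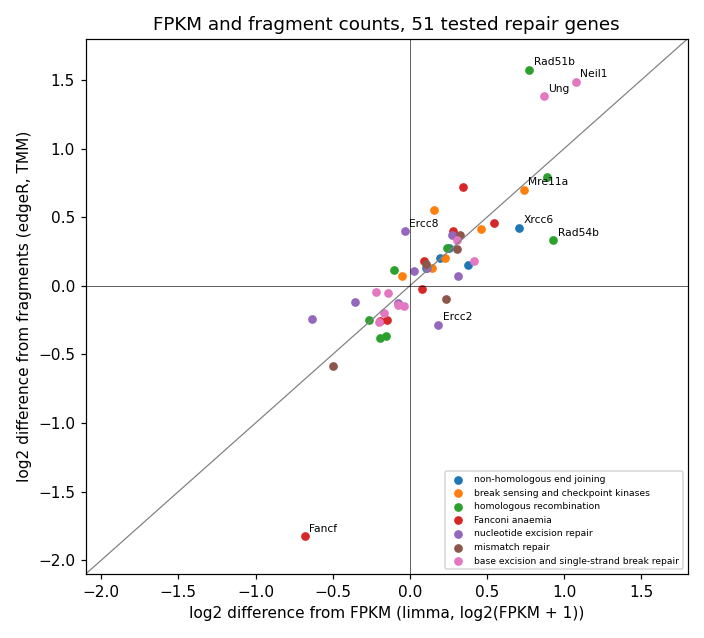
Log2 difference (KO-labelled minus WT) of 51 tested repair genes from FPKM with limma (horizontal axis) and from fragment counts with edgeR (vertical axis), coloured by pathway, with the line of equal values in grey. Neil1, Ung and Mre11a are high on both axes, Fancf is low on both, and Ercc2 has opposite signs.

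Counted over the families, in 13 of the 53 tested genes the KO-labelled pair lay wholly above the WT pair on FPKM (24.5%, against 20.0% of all genes tested) and in 2 wholly below (3.77%, against 15.1%). When the same was asked of FPKM and CPM together, 12 stood above (22.6%, against 11.8%) and 1 below (1.89%, against 11.5%). The 12 were Xrcc5, Mre11a, Rad50, Rad51b, Rad51c, Rad54l2, Msh6, Pms2, Ercc6, Neil1, Ung and Parp1, and the 1 was Fancf. Rad51b and Rad51c had passed the filter through the KO-labelled libraries alone, and Fancf through WT alone. Ung would not have passed on the WT pair alone. In both units with no filter, 12 of the 66 genes with any value stood above (18.2%, against 10.7%) and 6 below (9.09%, against 12%, or 1848 of 15428 genes). On FPKM with no filter, 13 of those 66 were above (19.7%, against 16.9%) and 7 below (10.6%, against 15.0%). Of the tested repair genes, 46 of 53 had the same sign with limma and edgeR, against 9265 of all 10910 genes fitted by both.

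The KO-labelled libraries differed from each other more than the WT libraries did. The median gap between the libraries of a group, on the log2(FPKM + 1) scale over the 53 genes, was 0.37 for the KO-labelled libraries and 0.21 for WT, against 0.41 and 0.18 over all genes tested. The KO-labelled gap was the wider in 39 of 53 genes (73.6%, against 71.5% of all genes tested), and in all 8 tested genes of homologous recombination. KO replicate 2 was lower than the other 3 libraries on FPKM for 11 of the 53 genes (20.8%, against 26.0%), among them Ercc1, Ercc2, Xrcc1 and Xrcc3. Without KO replicate 1, the library with muscle markers, 32 of 53 were higher and the median log2 difference was 0.12, and without KO replicate 2, the library whose genotype field names Fbxo46, 35 were higher and the median was 0.071. Neil1 stood at 1.03 and 1.12 without KO replicates 1 and 2 in turn, Mre11a at 0.65 and 0.83, Xrcc6 at 0.52 and 0.90, and Ung at 1.05 and 0.68. The pathway medians of end joining and break sensing were 0.38 and 0.33 without KO replicate 1, and 0.068 and -0.035 without KO replicate 2.

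**Figure D4:**
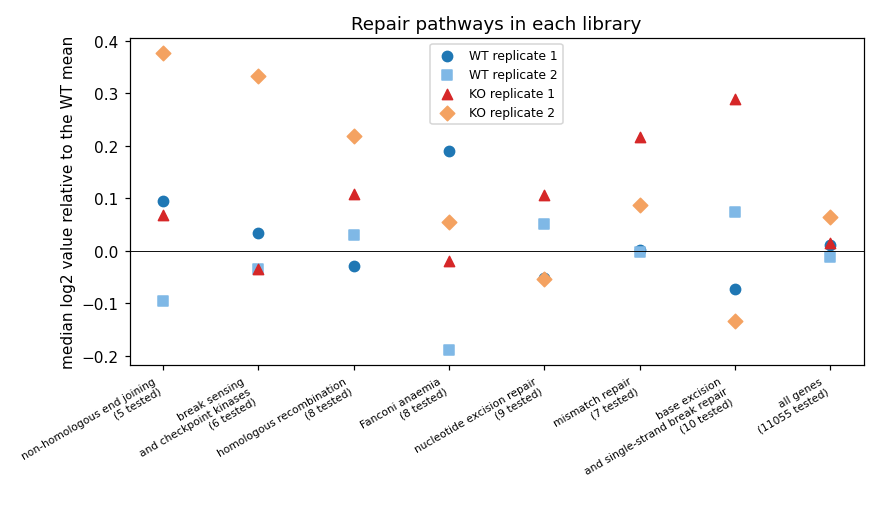
Median log2(FPKM + 1) value of each pathway's tested genes in each library, relative to the WT mean of each gene, with all tested genes at the right. KO replicate 2 is at 0.38 for end joining and 0.33 for break sensing, where KO replicate 1 is at 0.068 and -0.035, and for base excision the order of the KO-labelled libraries is the opposite (0.29 in KO replicate 1 and -0.13 in KO replicate 2).

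Other repair genes, from a list of 114 partners outside these families of which 107 were in the table, were nearly even. Of the 91 tested, 49 were higher and 42 lower (53.8% higher, median log2 difference 0.08), 0 passed the limma test and 0 the edgeR test, and 5 had an unadjusted limma p under 0.05 (5.49%, against 4.84% of all genes tested). Alkbh2, which reverses alkylated bases, was at 1.11 and 0.712 FPKM in the WT pair and 4.12 and 3.12 FPKM in the KO-labelled pair (log2 difference 1.27, SE 0.334; limma unadjusted p = 0.00918). Polm, a polymerase of end joining, was at 9.61 and 8.51 FPKM against 4.02 and 4.67 FPKM, the opposite direction to the core end joining genes (log2 difference -0.91, SE 0.253; limma unadjusted p = 0.0115). Rnf8, a ubiquitin ligase at breaks, was at 13.7 and 11.3 FPKM against 20.3 and 25.7 FPKM. The helicase Recql was at 5.88 and 9.24 FPKM against 15.1 and 16.6 FPKM, but overlapped in CPM, at 20.6 and 24 against 21.8 and 26.3. Mpg, a glycosylase for alkylated bases, was at 7.11 and 4.76 FPKM against 3.22 and 2.76 FPKM (log2 difference -0.78, SE 0.304; limma unadjusted p = 0.0433). Polm, Rnf8, Recql and Mpg each share a locus with further genes, so their values are uncertain.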

How the data were processed

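Total RNA of sorted AT2 cells (1 µg per library) went through ribosomal RNA depletion and stranded library construction, then 150 cycles of sequencing, per the labels' protocols. Per the submitters' processing notes, the tools were Cuffdiff 2.2.1, Cufflinks, HISAT2 2.0.4 and cutadapt 1.9.3, and the build mm10. Parameters and the annotation release were not given in the sources used here. Besides gene names, the table gives FPKM, computed by the authors, and counts per gene and library, per the file headers. The deposited counts are estimated counts, scaled by 1 constant per library: after division by that constant, between 90.5% and 92.5% of positive values were whole within 0.05. The resulting fragments, rounded, entered edgeR and DESeq2, and CPM was computed from them. A floor is 3 fragments and covers counting error alone.

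Groups were compared (KO-labelled minus WT) in R 4.3.3 by limma 3.58.1 with its mean-variance trend, on log2(FPKM + 1), for genes at 1 FPKM or more in at least 2 of the 4 libraries, adjusted by Benjamini-Hochberg over all 11055 at 0.05; this scale understates differences of low genes. edgeR 4.0.16 (quasi-likelihood, TMM) and DESeq2 1.42.0 were alternatives, with other pseudocounts, filters, scalings, a replicate block and each library left out. The limma and edgeR functions were tested on simulated counts, and the DESeq2 fit was not. The members, pathways and lists were chosen with earlier results of these data known; the table of protein complexes was written with the values in view. 3 members are included in all counts and medians and are not reported singly here. For the rest, full values were planned for the 2 most abundant genes per pathway, for tested genes with an unadjusted p under 0.05 or a log2 difference of at least 0.5 in size, and for genes whose log2 differences from the 2 units were 1 or more apart. Values of the other members were added after they were seen. Of the table's genes 5875 share a locus with another gene, among them 25 of the 67. Not all of the 25 are marked above. Fanca, Xrcc2, Msh3, Fancf, Rad54b, Msh6 and Pms2 are among the unmarked ones, and their values are uncertain for the same reason. Gene coordinates are from GENCODE M21 (GRCm38, also called mm10), 1-based.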

Additional observations from a re-analysis of the deposited data

How the results depend on the processing

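Under all 17 alternatives, 0 of the repair members and 0 of the other repair genes passed the threshold. Over all genes the count of calls was 0 except 5 with edgeR and no filter, 7 with DESeq2, and 0 to 134 when a library was left out (3 without WT replicate 2, 134 without KO replicate 2). With the replicate block 0 genes passed (lowest adjusted p 0.072), and the members' median stayed at 0.11; the block changed no other call. Same-numbered libraries share only a number: their deviations from the group means correlated at 0.0257 over 11055 genes. Depth limits the low genes, at 60 fragments or fewer.

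Members higher in the KO-labelled libraries numbered 17 of 25 with the filter at 5 FPKM and 22 of 32 without genes of a shared locus, where fewer genes were tested, and 32 to 37 with a library left out. The members' median log2 difference was 0.17 and 0.18 with pseudocounts of 0.1 and 0.01 FPKM, 0.087 with no filter, 0.16 with equal library totals, 0.14 with edgeR and DESeq2 size factors, and 0.071 to 0.18 with a library left out.

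The Fanconi anaemia median was -0.15 at 5 FPKM (1 gene), -0.14 with edgeR and no filter, -0.13 with DESeq2, and -0.029 to 0.21 with a library left out. That of base excision was 0.31 without genes of a shared locus, where 5 genes were left, and -0.13 to 0.29 with a library left out (0.29 without KO replicate 2). That of break sensing was 0.41 with edgeR and TMM, 0.42 with edgeR and DESeq2 size factors, 0.41 with edgeR and no filter and 0.41 with DESeq2, and -0.035 to 0.34 with a library left out (-0.035 without KO replicate 2). That of homologous recombination was -0.022 with no filter, 0.24 at 5 FPKM (1 gene), 0.24 without genes of a shared locus, -0.042, -0.036 and -0.050 with edgeR (TMM, DESeq2 size factors, no filter), -0.051 with DESeq2, and 0.057 to 0.22 with a library left out. That of mismatch repair was 0.20 at 5 FPKM and 0.086 to 0.22 with a library left out, that of end joining 0.068 to 0.38 (0.068 without KO replicate 2), and that of nucleotide excision -0.053 to 0.11.

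Of the 20 genes reported singly for which full values were planned, 10 never changed sign: Neil1, Ung, Mre11a, Xrcc5, Xrcc6, Rad51b, Rad51c, Rad54b, Rad54l2 and Fancf. Except for Rad54b, the groups of these genes did not overlap on FPKM, so leaving out a library could not change their sign. Most of them were followed for their p or size in these same data. Their constant sign is therefore no separate support. Genes whose values were added later were not followed singly across the alternatives. With equal library totals Apex1 was at 0.016 and Nbn at 0.0020. With edgeR (TMM, DESeq2 size factors, no filter) and DESeq2, Nbn was at 0.075, 0.083, 0.075 and 0.083, and Ercc2 at -0.28 under each. With a library left out the log2 difference ran from -0.43 to 0.046 for Fancc, -0.62 to 0.33 for Fance, -0.21 to 1.30 for Fancg, -0.36 to 0.29 for Apex1, -0.44 to 0.29 for Parp3, -0.25 to 0.70 for Atm, -0.38 to 0.28 for Nbn, -0.45 to 0.14 for Rad51d, -1.41 to 0.15 for Ercc1 and -0.55 to 0.92 for Ercc2. The cause was not tested.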
